A study of Homo sapiens with 19 samples.

Results

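The transcriptomes of A549 cells grown as spheroids were set against those of A549 cells grown as monolayers, in the hours after nanostraw electroporation (NEE). A549 is an established human lung adenocarcinoma line, and NEE draws RNA out of living cells through hollow nanoscale tubes during brief electrical pulses. Samples were chosen by their titles: 6 spheroid libraries and 6 monolayer libraries, with 2 libraries each taken right away, 2 h and 24 h after NEE, made up 12 of the 19 libraries of the series. The other 7 were 4 libraries taken before NEE and 3 technical replicates of RNA sampled by NEE itself. All 12 libraries came from cells of the same line that had been through NEE, and no culture kept for the same times without NEE was labelled, so the handling is shared by both groups. RNA was extracted from the cells with a total RNA kit and made into libraries by Smart-Seq2. Nothing in the labels says whether the 2 libraries of a group came from separate cultures, so p-values measure the spread between these libraries, which may be technical.

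A spheroid is a ball of cells that grow attached to each other, whereas a monolayer is a single sheet on a flat support. Oxygen and nutrients reach the inner cells of a spheroid by diffusion, and spheroids are known for low-oxygen (hypoxic) signalling, for glycolysis and for many cells that have left the division cycle. In low oxygen the HIF transcription factors are stabilised and switch on genes for pH control, glucose use and survival. E2F factors drive the genes of DNA replication, and a separate element, the CHR, marks many genes of mitosis.

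The deposited values are raw counts per gene on GRCh38, and 14970 of 62700 listed genes had at least 1 CPM, a count scaled to the library total, in at least 2 of the 12 libraries and were tested. The 12 libraries held between 16031034 and 22009279 counts, so that 3 counts correspond to 0.136 to 0.187 CPM. The 12 listed A549 and epithelial identity genes summed to between 39000 and 65000 CPM in spheroids and between 39800 and 56300 CPM in monolayers. On the first principal component of the tested genes, with 35.8% of the variance, spheroid libraries lay between 23.74 and 53.93 and monolayer libraries between −50.44 and −24.02. The second component, with 15.7%, separated the spheroid libraries by replicate number: those of number 1 lay at 20.85, 36.47 and 23.9 and those of number 2 at −11.92, −19.9 and −55. The labels give this number as a batch, so fits of the 3 spheroid and 3 monolayer libraries of each number alone are given beside the gene lists.

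Spheroids differed from monolayers in a large part of the transcriptome. In a model with time as a block, 1659 genes were higher in spheroids and 1726 were lower (edgeR quasi-likelihood test, Benjamini-Hochberg adjusted p under 0.05). These are 11.1% and 11.5% of the genes tested, or 22.6% together. The genes that were higher differed by more: 832 of them passed a log2 fold change of 1 and 262 passed 2, against 499 genes below −1 and 66 below −2. The median over all tested genes was 0.0043. Among tested protein-coding genes, 1560 were higher and 1645 lower of 12668, and among long intergenic non-coding genes 32 were higher and 23 lower of 551. Within the libraries of number 1, 1732 genes were higher and 1521 lower, and within those of number 2, 1179 were higher and 1154 lower.

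**Figure D1:**
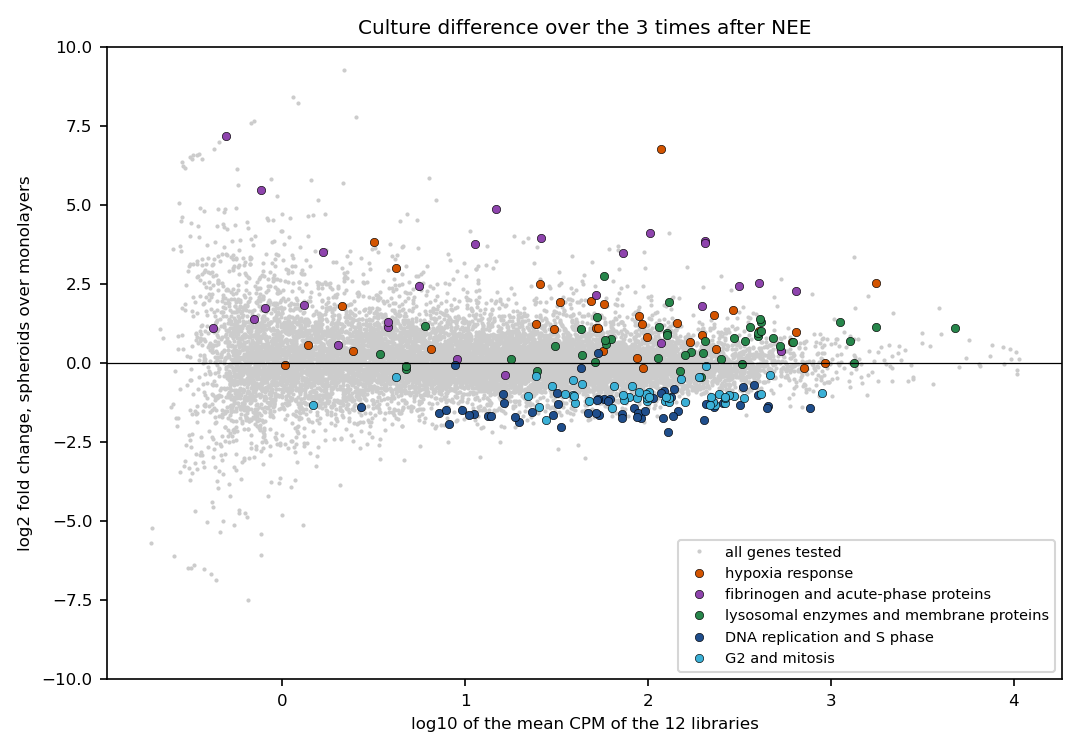
Fitted log2 fold change, spheroids over monolayers, of all 14970 tested genes against the log10 of the mean CPM of the 12 libraries, with the members of 5 gene lists in colour. Replication and mitosis genes lie in a band below 0, and hypoxia, acute-phase and lysosomal genes lie mostly above it.

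Of 6 marker genes, CA9, ALDOC, FGB and GRN were higher in spheroids and MCM10 and CDC6 were lower, and for each of them the 6 spheroid libraries did not overlap the 6 monolayer libraries. Genes without overlap made up 4.98% of the tested genes on the higher side and 6.53% on the lower side. These are levels in bulk RNA, in which fewer cells of a type and less RNA per cell cannot be told apart.

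CA9 encodes carbonic anhydrase 9, a surface enzyme of pH control and a classic target of HIF (ENSG00000107159, chromosome 9 at 35673856 to 35681159). In spheroids it stood at 290.3 and 192 CPM right away, 301 and 103 CPM at 2 h and 324 and 175 CPM at 24 h. In monolayers it stood at 0.829 and 1.27 CPM right away, 1.04 and 0.838 CPM at 2 h and 3.09 and 10.2 CPM at 24 h. Every spheroid library was thus far above every monolayer library, and the highest monolayer value was that of replicate 2 at 24 h. The log2 fold change was 6.78 ± 0.60 (± SE here and for all log2 values below; edgeR adjusted p = 3.47e-05), with 7.58 in the libraries of number 1 and 5.78 in those of number 2.

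ALDOC encodes aldolase C, a glycolytic enzyme (ENSG00000109107, chromosome 17 at 28573115 to 28577264). Spheroids had 317 and 302 CPM right away, 253 and 161 CPM at 2 h and 239 and 206 CPM at 24 h. Monolayers had 9.01 and 13.2 CPM right away, 13.4 and 11.1 CPM at 2 h and 18.1 and 20.6 CPM at 24 h. The lowest spheroid library was the 2 h replicate 2, still well clear of all monolayers, and the log2 fold change was 4.13 ± 0.22 (edgeR adjusted p = 7.06e-07).

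FGB encodes the fibrinogen beta chain, a liver-type acute-phase protein that A549 cells can also make (ENSG00000171564, chromosome 4 at 154562956 to 154571086). Its levels were 449 and 433 CPM right away, 436 and 353 CPM at 2 h and 235 and 389 CPM at 24 h in spheroids. They were 6.63 and 45.7 CPM right away, 13.3 and 37.3 CPM at 2 h and 12.6 and 40.3 CPM at 24 h in monolayers. At each time the monolayer library of number 1 was lower than that of number 2. The log2 fold change was 3.87 ± 0.47 (edgeR adjusted p = 0.000224), with 5.08 in the libraries of number 1 and 3.25 in those of number 2.

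GRN encodes progranulin, a secreted and lysosomal glycoprotein (ENSG00000030582, chromosome 17 at 44345086 to 44353102). It was the most even of the 4 genes that were higher, at 1642 and 1638 CPM right away, 1784 and 1437 CPM at 2 h and 1495 and 1589 CPM at 24 h in spheroids. The monolayer values were 681 and 710 CPM right away, 623 and 645 CPM at 2 h and 606 and 655 CPM at 24 h. The log2 fold change was 1.29 ± 0.08 (edgeR adjusted p = 3.51e-06).

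MCM10 loads polymerase alpha at replication origins (ENSG00000065328, chromosome 10 at 13161554 to 13211104). It was found at 50.6 and 33.1 CPM right away, 38.5 and 45.4 CPM at 2 h and 62.4 and 50.2 CPM at 24 h in spheroids. It was found at 234 and 228 CPM right away, 211 and 205 CPM at 2 h and 175 and 204 CPM at 24 h in monolayers. CDC6 licenses origins by helping to load the MCM helicase (ENSG00000094804, chromosome 17 at 40287633 to 40304657). It was found at 99.9 and 72.6 CPM right away, 78.1 and 94.5 CPM at 2 h and 97.4 and 98.8 CPM at 24 h in spheroids, against 313 and 353 CPM right away, 326 and 369 CPM at 2 h and 265 and 271 CPM at 24 h in monolayers. Both genes were lower in every spheroid library than in any monolayer library, by −2.17 ± 0.15 for MCM10 (edgeR adjusted p = 3.51e-06) and by −1.80 ± 0.13 for CDC6 (edgeR adjusted p = 3.51e-06) as log2 fold changes with SE.

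**Figure D2:**
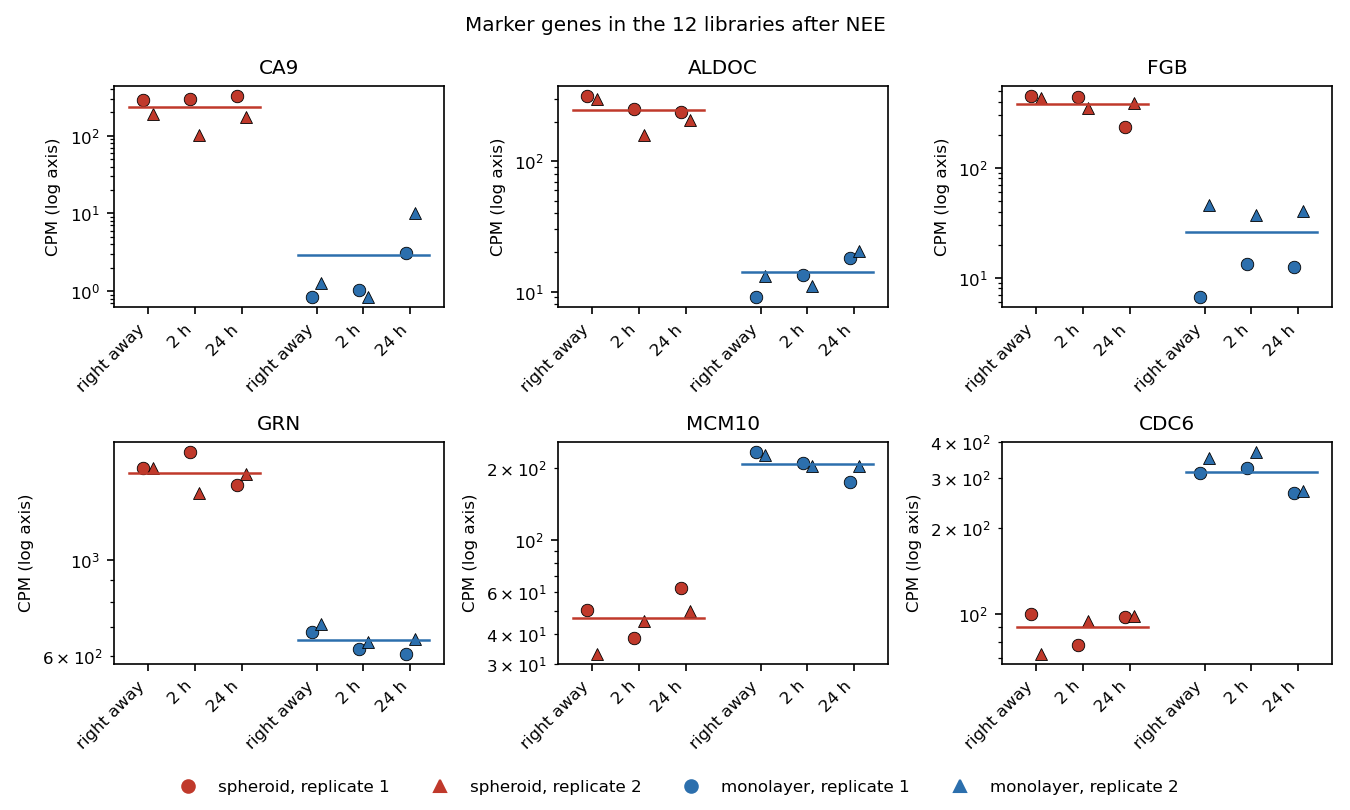
CPM on a log axis of 6 marker genes in each of the 12 libraries, with spheroids on the left and monolayers on the right of each panel and the 3 times in order. Each point is 1 library; CA9, ALDOC, FGB and GRN lie higher in all 6 spheroid libraries and MCM10 and CDC6 lower.

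Promoters of genes picked from the gene lists, all holding a match, are shown so that the letters of the response element can be seen. They run from 250 bases before to 50 bases after the RefSeq start on GRCh38.p14, 5′ to 3′ on the gene's strand, with each match on either strand in capitals. ACGTG is the core of the hypoxia response element. CA9 (chr9:35673678-35673977, plus strand) has 1 match and ALDOC (chr17:28576846-28577145, minus strand) has 3, of which 2 overlap on opposite strands in the palindrome CACGTG.
CA9: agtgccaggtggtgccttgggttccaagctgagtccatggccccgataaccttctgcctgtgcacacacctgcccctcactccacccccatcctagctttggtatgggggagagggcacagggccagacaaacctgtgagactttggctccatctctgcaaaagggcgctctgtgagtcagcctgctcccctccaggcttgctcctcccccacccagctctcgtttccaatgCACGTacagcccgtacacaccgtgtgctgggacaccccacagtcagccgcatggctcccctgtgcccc
ALDOC: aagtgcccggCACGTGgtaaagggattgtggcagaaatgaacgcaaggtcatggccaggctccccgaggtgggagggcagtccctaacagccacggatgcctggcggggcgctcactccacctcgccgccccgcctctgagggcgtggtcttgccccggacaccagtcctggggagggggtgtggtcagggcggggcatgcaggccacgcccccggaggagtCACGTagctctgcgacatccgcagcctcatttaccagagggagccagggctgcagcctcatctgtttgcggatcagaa
TTTGGCG and TTTCGCG are core forms of the E2F motif. MCM10 (chr10:13161308-13161607, plus strand) has 1 match and CDC6 (chr17:40287629-40287928, plus strand) has 2. TTTGAA is the CHR, and CDC20 (chr1:43358731-43359030, plus strand), the activator of the anaphase-promoting complex, has 2.
MCM10: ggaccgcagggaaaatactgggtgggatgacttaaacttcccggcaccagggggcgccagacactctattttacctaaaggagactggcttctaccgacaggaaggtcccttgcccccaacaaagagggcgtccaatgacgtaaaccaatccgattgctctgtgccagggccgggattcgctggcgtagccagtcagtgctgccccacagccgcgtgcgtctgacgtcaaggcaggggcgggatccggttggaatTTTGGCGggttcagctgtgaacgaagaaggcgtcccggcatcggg
CDC6: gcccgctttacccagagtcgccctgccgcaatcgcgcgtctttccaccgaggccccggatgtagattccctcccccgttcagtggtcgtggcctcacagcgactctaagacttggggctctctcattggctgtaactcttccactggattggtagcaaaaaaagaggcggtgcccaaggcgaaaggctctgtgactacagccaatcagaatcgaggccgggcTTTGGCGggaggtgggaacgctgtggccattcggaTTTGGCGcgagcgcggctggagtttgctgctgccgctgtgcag
CDC20: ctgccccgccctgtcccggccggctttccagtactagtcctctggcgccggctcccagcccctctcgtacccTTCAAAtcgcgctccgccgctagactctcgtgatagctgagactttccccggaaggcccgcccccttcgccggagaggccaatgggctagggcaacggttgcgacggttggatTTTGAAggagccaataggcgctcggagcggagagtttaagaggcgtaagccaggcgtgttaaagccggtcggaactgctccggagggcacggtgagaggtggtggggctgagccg
CTGGGAA is part of the STAT3 element of acute-phase genes, with 1 match in FGB (chr4:154562730-154563029, plus strand). CACGTG is the E-box core within the element read by TFEB in lysosomal genes, with 2 matches in GAA (chr17:80101331-80101630, plus strand), the lysosomal alpha-glucosidase.
FGB: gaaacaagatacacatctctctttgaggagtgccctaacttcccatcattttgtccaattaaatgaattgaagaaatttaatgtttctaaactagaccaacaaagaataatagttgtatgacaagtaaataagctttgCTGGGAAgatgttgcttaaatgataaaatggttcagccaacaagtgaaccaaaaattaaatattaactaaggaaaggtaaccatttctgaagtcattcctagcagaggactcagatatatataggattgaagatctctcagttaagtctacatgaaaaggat
GAA: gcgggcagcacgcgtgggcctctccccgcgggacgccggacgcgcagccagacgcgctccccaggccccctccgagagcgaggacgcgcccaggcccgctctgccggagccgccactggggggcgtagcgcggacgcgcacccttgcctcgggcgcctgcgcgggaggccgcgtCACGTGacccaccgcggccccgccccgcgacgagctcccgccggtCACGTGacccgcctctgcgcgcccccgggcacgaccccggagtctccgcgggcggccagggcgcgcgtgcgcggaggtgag

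Each motif was then counted on both strands in all 27305 RefSeq promoters of that length. ACGTG was in 21.6% of all promoters, in 16 of 28 hypoxia promoters (57.1%) and in 10 of 25 glycolysis promoters (40%). It was also in 17 of 41 promoters of mitosis genes (41.5%), a share like that of glycolysis. Lysosomal promoters held it in 11 of 29 (37.9%), replication promoters in 13 of 46 (28.3%) and acute-phase promoters in 2 of 24 (8.33%). Either E2F form was in 3.22% of all promoters and in 20 of 46 replication promoters (43.5%). TTTGAA was in 15.4% of all promoters, in 29 of 41 promoters of mitosis genes (70.7%) and in 1 of 46 replication promoters (2.17%). CACGTG, which contains ACGTG, was in 7.43% of all promoters, in 8 of 29 lysosomal promoters (27.6%) and in 6 of 28 hypoxia promoters (21.4%). It was in 14.6% of mitosis, 13% of replication, 12% of glycolysis and 4.17% of acute-phase promoters. CTGGGAA was in 11% of all promoters and in 8 of 24 acute-phase promoters (33.3%). The counts are over list members with a promoter in the RefSeq table, whether or not they differed between cultures, and a match describes letters, not a bound site.

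Genes of the hypoxia response were mostly higher in spheroids: of 35 members, all tested, 20 were higher and 1 was lower, against the 11.1% and 11.5% of all tested genes, and their median log2 fold change was 1.08. The same shares of all tested genes stand beside the counts of every list below. For genes without overlap they are 4.98% and 6.53%. Of the 20, 19 also passed the level filter through the monolayers, and 1 passed it only through the spheroids. The pH regulator CA12, carbonic anhydrase 12, had 1156 to 4383 CPM with a median of 3230 CPM in spheroids, against 317 to 675 CPM with a median of 509.5 CPM in monolayers, a log2 difference of 2.54 ± 0.27 (edgeR adjusted p = 7.13e-05). BNIP3 and BNIP3L, which mark mitochondria for removal by autophagy, differed by 1.53 ± 0.16 and 1.68 ± 0.14 (edgeR adjusted p = 4.48e-05 and 9.75e-06). The list's other members above 2 were PPFIA4, LOX, which cross-links collagen, and NDRG1, at 3.82, 3.01 and 2.50. VEGFA, the vascular growth factor, stood at −0.05 and HIF1A, which is regulated largely through its protein, at −0.01, and neither was called. The list medians were 1.17 right away, 0.81 at 2 h and 1.04 at 24 h.

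The size of the hypoxia difference varied with the replicate number. The list's median was 1.38 in the libraries of number 1 and 0.48 in those of number 2, with 26 members higher and 0 lower in number 1 and 11 higher and 4 lower in number 2. After centring each gene on its mean over the 12 libraries, the list median of log2 CPM was 1.17, 0.838 and 0.925 at the 3 times in spheroids of number 1 and 0.168, −0.0863 and −0.283 in spheroids of number 2, against −0.692 to −0.213 in monolayers. All spheroid values except those of number 2 at 24 h and at 2 h were above 0, and number 2 at 24 h lay within the range of the monolayers. Whether the culture difference itself differs between the numbers was not tested.

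Genes of glycolysis and glucose transport were higher in part: 15 of 26 tested members (27 listed) were higher, 0 were lower and the median was 0.79. PGK1, phosphoglycerate kinase, had 4475 to 7389 CPM with a median of 6024 CPM in spheroids, against 1637 to 2014 CPM with a median of 1793 CPM in monolayers, a log2 difference of 1.75 ± 0.12 (edgeR adjusted p = 3.51e-06). GPI, which converts glucose 6-phosphate, and PFKL, the liver form of phosphofructokinase, differed by 1.14 ± 0.13 and 1.09 ± 0.10 (edgeR adjusted p = 5.43e-05 and 2.64e-05). The lactate exporter SLC16A3, hexokinase HK2 and PDK1, which holds pyruvate back from the mitochondria, stood at 2.23, 2.08 and 1.93 and were called. The glucose transporter SLC2A1 at 0.39, enolase ENO1 at 0.16 and the lactate importer SLC16A1 at −0.34 were not called. The median was 0.94 in the libraries of number 1 and 0.33 in those of number 2. Of 47 nuclear genes of the respiratory chain, 1 was higher and 1 lower, with a median of −0.08; these were SDHC of complex II at 0.40 and ATP5MC1 of the ATP synthase at −0.71.

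**Figure D3:**
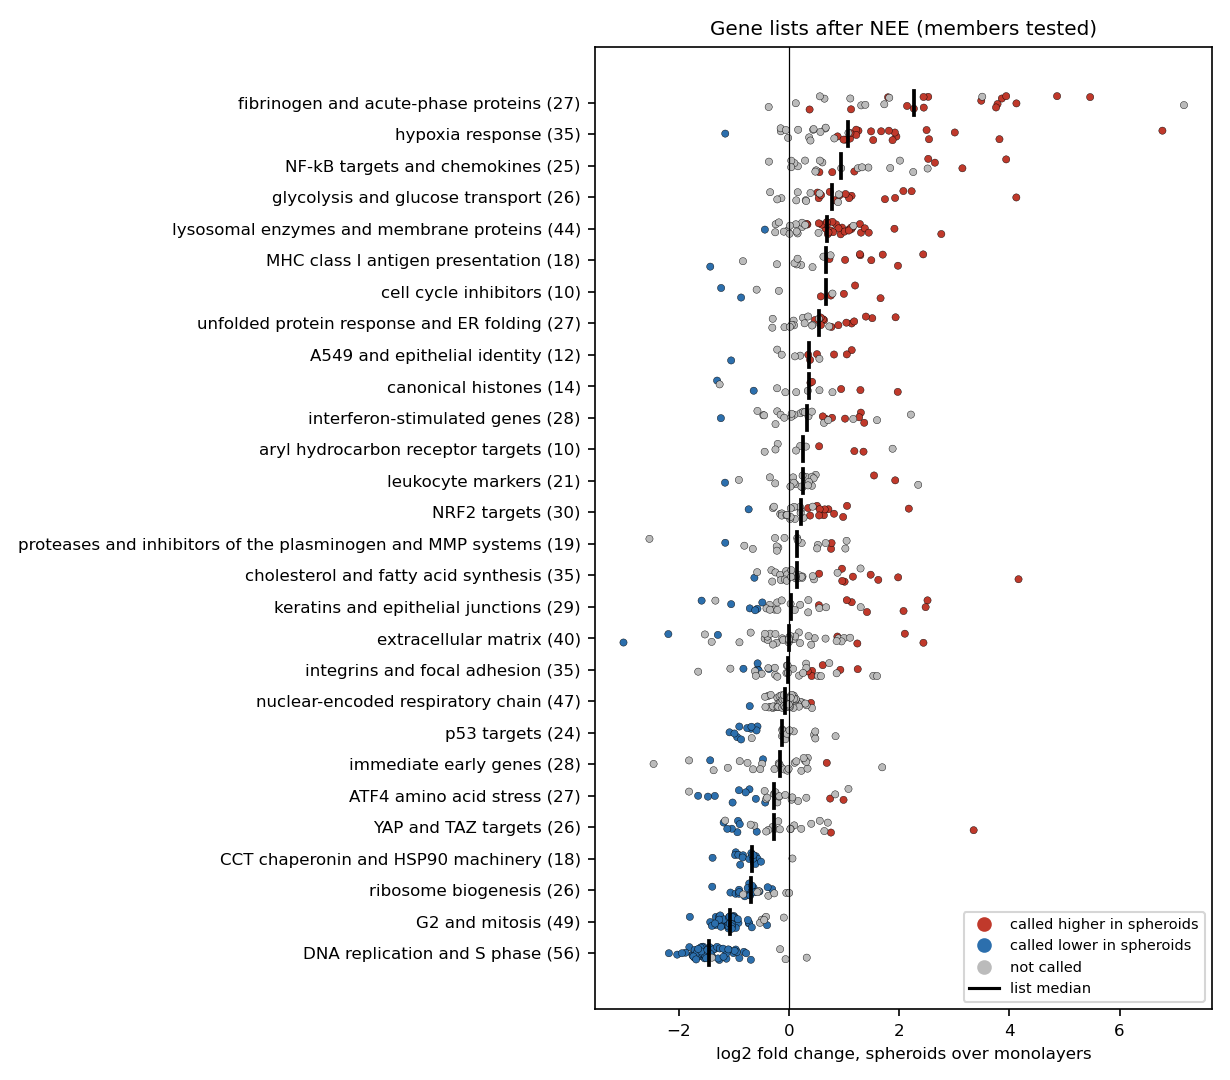
Fitted log2 fold change, spheroids over monolayers, of each tested member of the gene lists, ordered by list median (black bar), with the number of tested members in brackets. Red points were called higher in spheroids, blue points lower and grey points were not called; the replication, mitosis, chaperonin and ribosome biogenesis lists hold no red point.

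Many secreted acute-phase proteins of the liver type were higher in spheroids. Of 27 tested members (37 listed), 16 were higher and 0 lower, with a median of 2.27. The median includes 4 members that passed the level filter only through the spheroid libraries, and 15 of the 16 higher members also passed it through the monolayers. FGG and FGA, the other fibrinogen chains, differed by 4.13 ± 0.66 and 3.49 ± 0.36 (edgeR adjusted p = 0.00116 and 5.77e-05). FGG had 77.0 to 359 CPM with a median of 139 CPM in spheroids, against 2.60 to 20.5 CPM with a median of 10.5 CPM in monolayers. CP, the copper-carrying ferroxidase ceruloplasmin, had 252 to 451 CPM with a median of 386 CPM in spheroids, against 7.68 to 64.1 CPM with a median of 20.6 CPM in monolayers, and differed by 3.79 ± 0.59 (edgeR adjusted p = 0.00101). The groups did not overlap for either gene. Complement genes stood alongside them, with C3 at 2.53, CFB at 3.76, C1R at 2.44 and C1S at 2.27, all called. STAT3, the transcription factor that drives this class, was higher by 0.38 and its feedback inhibitor SOCS3, at 0.13, was not called. IL6, at 0.57, was not called.

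The acute-phase difference also varied with the number, in spheroids and in monolayers. The list median was 3.93 in the libraries of number 1 and 1.09 in those of number 2. On the centred scale spheroids lay between 0.374 and 1.26, monolayers of number 1 at −1.05, −1.07 and −1.03 and monolayers of number 2 at −0.158, −0.435 and −0.69. FGG's log2 fold change was 6.35 in the libraries of number 1 and 2.45 in those of number 2, and that of CP 5.73 in the libraries of number 1 and 2.83 in those of number 2. Both genes were higher in spheroids under either number.

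NF-kB targets and chemokines had 7 higher and 0 lower of 25 tested members (29 listed), with a median of 0.95. LCN2, an iron-siderophore binding protein, had 28.1 to 77.9 CPM with a median of 41.1 CPM in spheroids, against 0.417 to 6.56 CPM with a median of 2.43 CPM in monolayers, a log2 difference of 3.94 ± 0.72 (edgeR adjusted p = 0.00259), with 6.89 in the libraries of number 1 and 2.50 in those of number 2. ICAM1, an adhesion receptor for leukocytes, stood at 3.15 ± 0.74 (edgeR adjusted p = 0.0106), and its call was lost without the right-away spheroid replicate 1 (adjusted p = 0.061). It stood at 4.08 in the libraries of number 1 and 1.17 in those of number 2, where it was not called (edgeR adjusted p = 0.416). The list's 7 higher members were 3 without that library and 11 without the right-away spheroid replicate 2, and 2 tested members passed the level filter only through the spheroids. The chemokines CXCL8, CXCL1 and CCL20 stood at 2.02, 1.84 and 2.52 and were not called. The list's median was 1.53 in the libraries of number 1 and −0.21 in those of number 2, with 15 members higher in number 1 and 2 in number 2, so its median differed in sign between the numbers.

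Class I antigen presentation had 8 members higher and 1 lower of 18, with a median of 0.68. HLA-B, HLA-C and HLA-E, chains that present peptides, differed by 2.44 ± 0.26, 1.71 ± 0.12 and 1.30 ± 0.12 (edgeR adjusted p = 4.47e-05, 4.02e-06 and 2.59e-05), and B2M, their shared light chain, by 1.02. Near-identical copies among HLA genes make their single values uncertain, since the handling of reads that fit several genes is not given in the sources used here. The peptide transporter TAP2 was the lower member at −1.42 and TAP1, at −0.21, was not called. The list's median was 1.11 in the libraries of number 1 and 0.12 in those of number 2. Of 28 interferon-stimulated genes 7 were higher and 1, OAS3, lower; ISG15 stood at −0.08 and was not called. The interferon list's median was 0.69 in the libraries of number 1 and 0.03 in those of number 2, with 8 members higher in number 1 and 2 in number 2, and without replicate 1 of the monolayers right away or at 24 h 4 were higher.

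**Figure D4:**
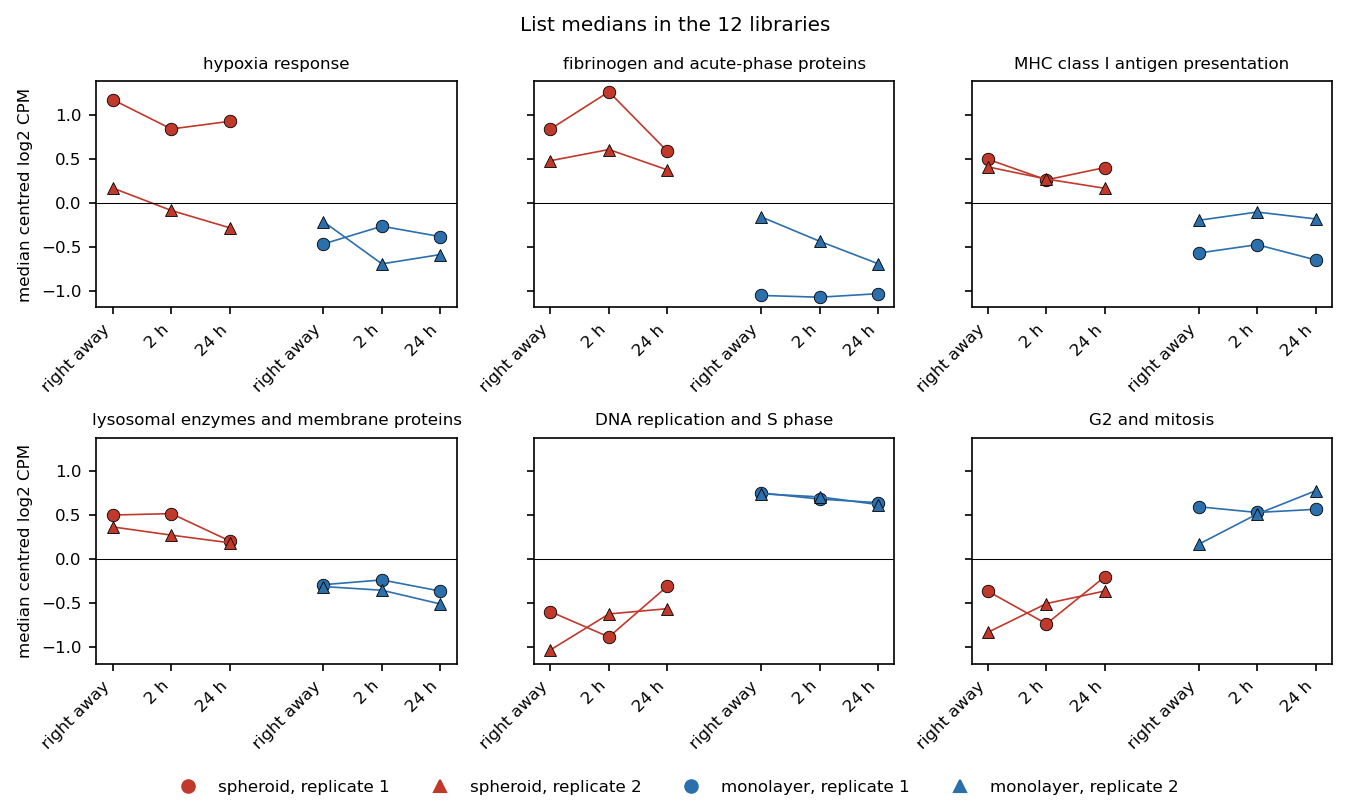
Median over list members of log2 CPM, each gene centred on its mean over the 12 libraries, for 6 lists, with spheroids left of monolayers, circles for replicate 1, triangles for replicate 2 and lines joining libraries of the same number over the 3 times. Replication medians of both numbers lie between −1.03 and −0.307 in spheroids and between 0.619 and 0.751 in monolayers, whereas hypoxia medians of spheroids differ by number.

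Lysosomal genes were higher in spheroids with little difference between the numbers. Of 44 members, all tested, 28 were higher and 1 lower, and the median was 0.70, with 0.69 in the libraries of number 1 and 0.72 in those of number 2. CTSD, the aspartic protease cathepsin D, had 499 to 709 CPM with a median of 572 CPM in spheroids, against 194 to 256 CPM with a median of 228 CPM in monolayers, a log2 difference of 1.38 ± 0.11 (edgeR adjusted p = 9.85e-06). CTSA, a protective carboxypeptidase, and GAA, whose promoter holds 2 of the E-boxes, differed by 1.16 ± 0.09 and 1.31 ± 0.10 (edgeR adjusted p = 9.75e-06 and 6.9e-06). The hydrolase genes HEXA, GUSB and GLB1 were higher by 0.97, 0.90 and 0.86. GLA, alpha-galactosidase, was the lower member at −0.43. Of the transcription factors that drive this class, TFE3 was higher by 0.72 and TFEB, at 0.30, was not called.

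Endoplasmic reticulum folding genes were higher in part, with 13 of 27 tested members (28 listed) higher, 0 lower and a median of 0.55. XBP1, the factor spliced by the stress sensor IRE1, had 41.0 to 117 CPM with a median of 59.4 CPM in spheroids, against 9.55 to 21.5 CPM with a median of 17.0 CPM in monolayers, a log2 difference of 1.94 ± 0.25 (edgeR adjusted p = 0.000151). The co-chaperone DNAJB9 differed by 1.14 ± 0.18 and the disulfide isomerases PDIA3 and PDIA6 by 0.77 ± 0.11 and 0.64 ± 0.10 (edgeR adjusted p = 0.000763, 0.000352 and 0.000568). The median was 0.53 in the libraries of number 1 and 0.60 in those of number 2. By time it was 0.73 right away, 0.60 at 2 h and 0.19 at 24 h. On the centred scale the 24 h spheroid library of number 1 lay at −0.125, and the other spheroid libraries between 0.216 and 0.435. Monolayers lay between −0.371 and −0.18. DDIT3 and PPP1R15A, which act further down the stress response, stood at 0.43 and −0.30 and were not called.

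Replication genes were lower in spheroids almost throughout. Of 56 members, all tested, 52 were lower in spheroids and 0 higher, with a median of −1.44. For 47 of the 56 the 6 spheroid libraries lay wholly below the 6 monolayer libraries. MCM6, a subunit of the replicative helicase, had 63.4 to 89.3 CPM with a median of 75.5 CPM in spheroids, against 177 to 244 CPM with a median of 218 CPM in monolayers, a log2 difference of −1.53 ± 0.12 (edgeR adjusted p = 9.7e-06). RFC5, of the clamp loader, differed by −1.44 ± 0.12 (edgeR adjusted p = 9.75e-06). The members spanned the whole machinery: the origin recognition subunit ORC1 stood at −1.63, the licensing factor CDT1 at −1.59, helicase subunits MCM2 to MCM7 between −1.53 and −1.10, and the sliding clamp PCNA at −0.77, all called. The 4 members not called were SLBP at 0.33, CCNE1 at −0.06, DUT at −0.16 and CDC25A at −1.39. CCNE2, the other cyclin E, was lower, at −1.64. The list's median was −1.29 in the libraries of number 1 and −1.49 in those of number 2 and stood at −1.64 right away, −1.52 at 2 h and −1.08 at 24 h.

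Genes of G2 and mitosis were lower as well, 44 of 49 tested members (50 listed) with 0 higher and a median of −1.07, and 37 of the 49 without overlap between the cultures. MYBL2, a factor of the complex that acts on the CHR, had 10.3 to 16.3 CPM with a median of 11.9 CPM in spheroids, against 35.1 to 52.4 CPM with a median of 42.8 CPM in monolayers, a log2 difference of −1.79 ± 0.17 (edgeR adjusted p = 2.4e-05). MKI67, the proliferation marker Ki-67, had 45.8 to 67.1 CPM with a median of 62.9 CPM in spheroids, against 96.9 to 159 CPM with a median of 140.4 CPM in monolayers, and differed by −1.21 ± 0.12 (edgeR adjusted p = 3.89e-05). CDC20 and the spindle kinase AURKA differed by −1.32 ± 0.12 and −1.24 ± 0.13 (edgeR adjusted p = 1.97e-05 and 3.53e-05). CCNB2, a mitotic cyclin, was lower by less, at −0.44, and CENPA, KIF20A, PTTG1, CDC25B and CDC25C were not called, at −0.45, −0.49, −0.52, −0.09 and −0.41. The list's median was −1.01 in the libraries of number 1 and −1.13 in those of number 2.

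Inhibitors of the cell cycle did not move as a block: of 10 tested members (12 listed), 5 were higher (CDKN2C, BTG1, RBL2, CDKN1B and TOB1) and 2 lower. CDKN2C, the CDK4 and CDK6 inhibitor p18, had 10.7 to 24.1 CPM with a median of 16.6 CPM in spheroids, against 3.37 to 7.31 CPM with a median of 4.90 CPM in monolayers, a log2 difference of 1.67 ± 0.27 (edgeR adjusted p = 0.000726). Without any 1 of 5 libraries (the monolayer replicate 1 of each time, the monolayer replicate 2 of 2 h or the right-away spheroid replicate 2) 3 were higher, as within each number alone. The call of CDKN1B was lost without replicate 1 of the monolayers at 2 h or at 24 h. The antiproliferative BTG1 differed by 1.2 ± 0.25 (edgeR adjusted p = 0.00386). CDKN1A, the p53-induced inhibitor p21, was lower at −0.86, and so was RBL1, a pocket protein that E2F itself induces, at −1.23. Of 24 p53 targets, 0 were higher and 10 lower, with a median of −0.12. Within number 1, 3 were higher and 4 lower, and within number 2, 0 were higher and 10 lower, with medians of −0.06 in the libraries of number 1 and −0.34 in those of number 2. POLH, a translesion polymerase, AEN, an exonuclease, and DDB2, of nucleotide excision repair, differed by −1.07 ± 0.19, −0.98 ± 0.21 and −0.94 ± 0.14 (edgeR adjusted p = 0.00117, 0.00409 and 0.000398).

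Chaperone and ribosome assembly genes were lower too; both lists were put together after their values had been seen, so their counts are a description. Of 18 genes of the CCT chaperonin and HSP90 machinery 17 were lower, with a median of −0.67, and all 17 without overlap; 16 were lower within each number. HSP90AA1, the inducible HSP90, had 321 to 511 CPM with a median of 360 CPM in spheroids, against 698 to 1337 CPM with a median of 995 CPM in monolayers, a log2 difference of −1.38 ± 0.13 (edgeR adjusted p = 2.4e-05). TCP1 and CCT4, subunits of the chaperonin, differed by −0.96 ± 0.09 and −0.97 ± 0.10 (edgeR adjusted p = 3.17e-05 and 3.34e-05). Of 26 ribosome biogenesis genes 19 were lower and 0 higher, with a median of −0.68, and 17 were lower within number 1 and 13 within number 2; NOLC1 and NCL, both nucleolar, differed by −1.06 ± 0.10 and −0.72 ± 0.10 (edgeR adjusted p = 2.52e-05 and 0.000209).

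Of 27 tested members of the ATF4 amino acid stress list (30 listed), 9 were lower and 2, DDIT4 and CTH, were higher, with a median of −0.27. With the replicate number as a block 4 were higher and 11 lower, and the median was −0.50 in the libraries of number 1 and −0.37 in those of number 2. PSAT1 and PHGDH, which make serine, and MTHFD2, which passes its carbon to folate in mitochondria, differed by −1.64 ± 0.17, −1.34 ± 0.22 and −1.02 ± 0.17 (edgeR adjusted p = 4.33e-05, 0.000848 and 0.000848). PSAT1 had 124 to 187 CPM with a median of 169 CPM in spheroids, against 357 to 663 CPM with a median of 507 CPM in monolayers. ATF4 itself, at −0.18, was not called, nor were its stress targets TRIB3, CHAC1 and SESN2, at 0.84, −0.17 and −0.06.

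Adhesion genes moved in both directions. Of 40 tested matrix genes (44 listed) 4 were higher and 3 lower, of 35 integrin and focal adhesion genes (37 listed) 6 were higher and 5 lower, and of 29 keratin and junction genes (32 listed) 7 were higher and 6 lower. Of all tested genes 11.1% were higher and 11.5% lower. The medians of these lists had opposite signs in the libraries of the 2 replicate numbers. The matrix median was 0.32 in the libraries of number 1 and −0.36 in those of number 2, with 14 higher and 4 lower in number 1 and 5 higher and 9 lower in number 2. The integrin and focal adhesion median was 0.27 in the libraries of number 1 and −0.34 in those of number 2, with 11 higher and 1 lower in number 1 and 3 higher and 10 lower in number 2. The keratin and junction median was 0.26 in the libraries of number 1 and −0.10 in those of number 2, with 7 higher and 4 lower in number 1 and 6 higher and 10 lower in number 2. With the replicate number as a block the matrix counts were 7 higher and 5 lower. Without the spheroid replicate 2 of 24 h 8 matrix genes were higher, and without replicate 1 of it 5 were lower. Of the integrin and focal adhesion genes, 3 were higher without either right-away monolayer library or the spheroid replicate 1 of 2 h, and without any 1 of 7 libraries only 2 or 3 were lower. FN1, fibronectin, was the highest-expressed of the matrix genes that were higher (the others were LAMB3, LAMB2 and AGRN), with 1956 to 3220 CPM with a median of 2522 CPM in spheroids, against 259 to 941 CPM with a median of 616 CPM in monolayers, a log2 difference of 2.11 ± 0.34 (edgeR adjusted p = 0.00131), with 3.20 in the libraries of number 1 and 1.38 in those of number 2. The 3 lower matrix genes were TNC, FBN2 and THBS1. FBN2, fibrillin 2, and THBS1, thrombospondin 1, were lower by log2 fold changes of −2.18 ± 0.36 and −1.29 ± 0.13 (edgeR adjusted p = 0.000893 and 3.18e-05). Among junction genes, CLDN3, a tight junction claudin, JUP, the desmosomal plakoglobin, and CDH1, E-cadherin, were higher by 2.52 ± 0.36, 1.42 ± 0.12 and 1.14 ± 0.21 (edgeR adjusted p = 0.000317, 1.25e-05 and 0.00176). KRT7, a simple-epithelium keratin, was lower at −1.04 ± 0.17 (edgeR adjusted p = 0.000754), KRT80 at −1.58 and VIM, vimentin, at −0.61. Of 26 YAP and TAZ targets 2 were higher (IGFBP3 and NT5E) and 7 lower, with a median of −0.03 in the libraries of number 1 and −0.52 in those of number 2; IGFBP3, an insulin-like growth factor binder, had 445 to 3908 CPM with a median of 2671 CPM in spheroids, against 81.1 to 485 CPM with a median of 247 CPM in monolayers, and differed by 3.35 ± 0.59 (edgeR adjusted p = 0.002; 4.26 in the libraries of number 1 and 1.98 in those of number 2), while the widely used targets CCN1 and CCN2 stood at −0.69 and 0.41 and were not called.

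Among metabolic and defence lists, 12 of 30 tested NRF2 targets (31 in the files) were higher and 1 lower, and 9 of 35 genes of cholesterol and fatty acid synthesis were higher and 1, ACLY, lower. ABCG1, a cholesterol exporter, had 7.86 to 27.2 CPM with a median of 20.7 CPM in spheroids, against 0 to 1.77 CPM with a median of 1.13 CPM in monolayers, a log2 difference of 4.17 ± 0.54 (edgeR adjusted p = 0.000168). The factors SREBF1 and SREBF2, which drive sterol and lipid synthesis, were higher by 1.98 and 1.62, whereas SQLE, a sterol synthesis enzyme, stood at −0.16 and was not called. The sterol list's median was −0.18 in the libraries of number 1 and 0.68 in those of number 2, with 9 members lower in number 1 and 19 higher in number 2. The NRF2 median was 0.08 in the libraries of number 1 and 0.41 in those of number 2, with 7 members higher in number 1 and 14 in number 2. Of the NRF2 list, the bile salt exporter ABCC3 and the aldo-keto reductase AKR1C1 differed by 0.99 ± 0.16 and 0.82 ± 0.16 (edgeR adjusted p = 0.000681 and 0.00216), and HMOX1, heme oxygenase, was lower at −0.73. Of 28 immediate early genes 1 was higher (DUSP6) and 2 lower (KLF6 and FOSL1), and FOS stood at −0.26 without a call. The called genes are 3.57% and 7.14% of the list, below the 11.1% and 11.5% of all tested genes. With the replicate number as a block 4 were lower, and the median was 0.08 in the libraries of number 1 and −0.67 in those of number 2. The calls of DUSP6 and KLF6 were each lost without any 1 of several libraries. Of 10 aryl hydrocarbon receptor targets 3 were higher (UGT1A6, AHR and NQO1). Of 19 tested protease and inhibitor genes 2 were higher (TIMP1 and BSG) and 1 lower, with a median of 0.28 in the libraries of number 1 and −0.69 in those of number 2. The called members are 10.5% and 5.26% of this list, also below the shares of all tested genes. Of 14 histone genes 5 were higher and 2 lower (H2AZ1 and H4C3), and 3 were higher within each number. In fits with 1 library left out, between 2 and 5 histone genes were higher and 1 or 2 lower. The call of NQO1 was lost without most single libraries.

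Apart from the listed pathways, the largest differences included genes of varied roles. Higher in spheroids were SLITRK6, a transmembrane protein known from neurons and the inner ear, at 5.15 ± 0.94, SPTSSB, a subunit of the enzyme that starts sphingolipid synthesis, at 4.53 ± 0.57, RAB37, a vesicle GTPase, at 4.02 ± 0.85, ADH6, an alcohol dehydrogenase, at 3.97 ± 0.81, and TSPAN8, a tetraspanin, at 3.83 ± 0.78 (edgeR adjusted p = 0.00221, 0.00013, 0.00599, 0.00477 and 0.00487). TSPAN8 had 9.03 to 93.2 CPM with a median of 32.8 CPM in spheroids, against 0.652 to 5.23 CPM with a median of 2.48 CPM in monolayers. SLITRK6 had 5.47 to 31.1 CPM with a median of 8.94 CPM in spheroids, against 0 to 1.77 CPM with a median of 0.162 CPM in monolayers, so its fold rests on few monolayer counts. The 12 genes named for size on each side had groups that did not overlap, as the rule for naming required.

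On the lower side stood ALOXE3, an epidermal lipoxygenase, at −3.06 ± 0.85, CAMKV, a kinase-like protein, at −3.03 ± 0.74, TNC, the matrix protein tenascin C, at −3.00 ± 0.75, and POLR3G, a subunit of RNA polymerase III, at −2.97 ± 0.33 (edgeR adjusted p = 0.0208, 0.00999, 0.0146 and 5.47e-05). The call of ALOXE3 was lost without the right-away spheroid replicate 1 (adjusted p = 0.0575). TNC had 0.117 to 21 CPM with a median of 8.44 CPM in spheroids, against 39.2 to 134 CPM with a median of 66.1 CPM in monolayers, with log2 fold changes of −1.51 in the libraries of number 1 and −5.67 in those of number 2. BCAT1, which transaminates branched-chain amino acids, had 5.02 to 20.3 CPM with a median of 11.8 CPM in spheroids, against 39.2 to 119 CPM with a median of 66.1 CPM in monolayers, and differed by −2.58 ± 0.34 (edgeR adjusted p = 0.000177). The zinc finger gene ZNF488 stood at −2.73, HPDL at −2.40, the fatty acid elongase ELOVL2 at −2.07, and BRCA2 and RAD54L, of homologous recombination, at −2.04 and −2.04, all called. THY1, a surface glycoprotein also used as a fibroblast marker, was lower at −2.62.

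**Figure D5:**
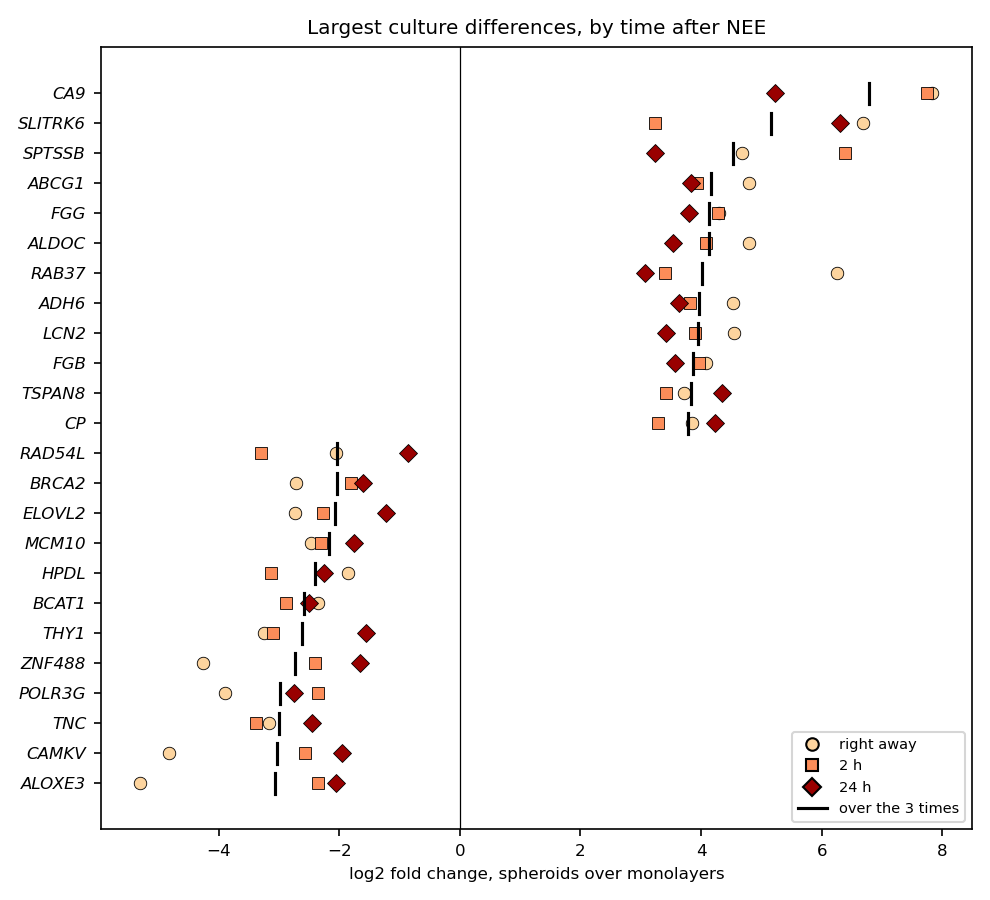
Log2 fold change, spheroids over monolayers, of the 12 genes with the largest difference on each side among those meeting the naming rule, right away (circle), 2 h (square) and 24 h (diamond) after NEE, with the value over the 3 times as a bar. The naming rule required no overlap between the cultures, so that all 24 genes lie on 1 side of 0 at all 3 times was set in advance. RAD54L at 24 h lies closest to 0.

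The glycolytic enzyme gene GAPDH, often used as a reference, was higher in spheroids by 0.74 ± 0.12 (edgeR adjusted p = 0.000634) and the nuclear long non-coding RNA NEAT1 by 0.67 ± 0.13 (edgeR adjusted p = 0.00271). MALAT1, another such RNA, at −0.22, was not called (edgeR adjusted p = 0.48). ACTB was at −0.36 with an edgeR adjusted p of 0.0496, a call that was lost in most fits with 1 library left out.

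Markers of other cell types were low in both cultures. Sums here are of unscaled CPM. The 34 leukocyte markers summed to 70.9 to 152 CPM in spheroids and 57.1 to 89.1 CPM in monolayers, and of 21 tested CD14 and CCL5 were higher and CORO1A lower, with the call of CCL5 lost without most single libraries; MS4A1 and CD163 were at 0 in all 12 libraries. The right-away spheroid replicate 2 stood apart in this list, with a centred median of 0.78, against −0.255 to 0.083 in the other 11 libraries. The 10 fibroblast markers summed to 7.69 to 11.5 CPM in spheroids and 11 to 23.3 CPM in monolayers, and the 9 endothelial markers to 2.82 to 4.39 CPM in spheroids and 0.731 to 3 CPM in monolayers, with KDR, TEK and TIE1 at 0 in both. PECAM1, the endothelial marker that was tested, was higher in spheroids at 1.46 ± 0.33 (edgeR adjusted p = 0.00645), and the cultures did not overlap. The 6 erythroid markers reached at most 0.413 CPM in spheroids and 0.283 CPM in monolayers. Markers of alveolar type 2 and airway secretory cells summed to 132 to 382 CPM in spheroids and 60.7 to 144 CPM in monolayers. Of 7 tested members (19 listed) 4 were higher, and 3 of the 4 also passed the level filter through the monolayers. Of the 4, SFTPD and SPDEF lost their calls without any 1 of several libraries. Among the 4 were also the mucins MUC1 at 2.67 ± 0.41 and MUC5B at 2.49 ± 0.32 (edgeR adjusted p = 0.000541 and 0.00017). NKX2-1, SCGB1A1 and SFTPA1 were at 0 in all 12 libraries. Their part in the other differences was not tested.

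Taken at single times, with 2 libraries against 2 and the spread shared over all 12, the number of calls was smaller. Right away 190 genes were higher and 317 lower, 1.27% and 2.12% of those tested and 3.39% together (edgeR adjusted p under 0.05). At 2 h 114 were higher and 192 lower, 0.762% and 1.28% and 2.04% together, and at 24 h 27 were higher and 12 lower, 0.18% and 0.0802% and 0.261% together. With the replicate number as a block these counts were 431 higher and 509 lower right away, 279 and 317 at 2 h and 140 and 86 at 24 h. They also rested on single libraries: without replicate 1 of the right-away monolayers 2 genes were higher and 2 lower right away, and without another right-away library 21 to 85 were higher and 10 to 137 lower. Without either monolayer library of 2 h the lower count right away was 210 or 207. Without any 1 of the 4 libraries of 2 h at most 35 were higher and 30 lower at 2 h. Without either monolayer library of 24 h 0 genes were called at 24 h, and without any other library at most 17 were higher and 8 lower. Unadjusted p-values under 0.05 were found for 2875, 2368 and 2116 genes at the 3 times.

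Whether the culture difference itself changed over the 3 times was tested as an interaction, and 0 of 14970 genes passed (edgeR; smallest adjusted p = 1; 240 genes at an unadjusted p under 0.05; DESeq2 called 7). The fewer calls at 24 h are therefore not shown to be a smaller difference for any gene. The genes called higher over the 3 times had a median log2 fold change of 1.09 right away, 0.994 at 2 h and 0.912 at 24 h, and those called lower −0.846, −0.737 and −0.668. CA9 stood at 7.83 right away, 7.74 at 2 h and 5.23 at 24 h, ALDOC at 4.80 right away, 4.08 at 2 h and 3.53 at 24 h and MCM10 at −2.46 right away, −2.31 at 2 h and −1.75 at 24 h. TMEM37 and DNMT1, the maintenance DNA methyltransferase, were among the genes with the smallest p at 24 h, at 3.05 right away, 2.95 at 2 h and 1.77 at 24 h for TMEM37 and −1.60 right away, −1.28 at 2 h and −1.61 at 24 h for DNMT1.

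FTH1, the heavy chain of the iron store ferritin, had the smallest interaction p. In spheroids it stood at 581 and 584 CPM right away, 517 and 488 CPM at 2 h and 429 and 415 CPM at 24 h. In monolayers it stood at 267 and 264 CPM right away, 274 and 254 CPM at 2 h and 467 and 447 CPM at 24 h. Spheroids were above monolayers right away and at 2 h and slightly below them at 24 h, with log2 fold changes of 1.13 right away, 0.93 at 2 h and −0.11 at 24 h, and its interaction did not pass in edgeR (adjusted p = 1) but passed in DESeq2 (adjusted p = 0.000159). FTH1 has many processed copies in the genome, so its reads are uncertain.

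Finally, the culture difference after NEE was set against that in the 4 libraries taken before NEE, and 0 of 15385 genes differed (edgeR; 529 at an unadjusted p under 0.05; DESeq2 called 20). Leaving out the monolayer replicate 1 from before NEE gave 0 of 15253 (493 at an unadjusted p under 0.05), and leaving out replicate 2 gave 38. Before NEE the marker genes had log2 fold changes, spheroids over monolayers, of 6.77 for CA9, 4.83 for ALDOC, 4.31 for FGB, 1.52 for GRN, −2.28 for MCM10 and −1.85 for CDC6. These values include the monolayer replicate 1, which differed from replicate 2 in leukocyte markers. CORO1A stood at 115.6 CPM in replicate 1 and 13.96 CPM in replicate 2, and CCL5 at 15.89 and 1.62 CPM. CD14 went the other way, at 0.77 and 15.48 CPM. The cause was not tested.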

How the data were processed

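Of 19 A549 libraries 12 were used. The authors deposited raw counts per gene. Per the submitters' processing notes, reads were mapped to GRCh38 with tools that include HISAT2 and featureCounts, after Trimmomatic and FastQC. The sources used here do not give versions, annotation release or strand setting, so genes that overlap on opposite strands and near-identical copies are uncertain. Of 62700 listed genes 58207 were placed in GENCODE release 29. The 37 genes of the mitochondrial genome had no counts.

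Counts were tested as deposited with edgeR 4.0.16 (R 4.3.3; robust quasi-likelihood F test, TMM, time as a block, 8 residual degrees of freedom, biological coefficient of variation 0.416), with Benjamini-Hochberg adjustment over 14970 genes. Single times and the interaction used a model of 6 group means (6 residual degrees of freedom), and the difference from before NEE one of 16 libraries. SE is the log2 fold change divided by the square root of F, an approximation. Printed CPM are scaled by TMM; the filter used unscaled CPM. DESeq2 1.42.0 and other settings were alternatives. Figures and motif counts used matplotlib 3.10.9, numpy 2.4.6 and pandas 2.3.3 under Python 3.11.15. The fits were tested on simulated data. No 2 libraries agreed within sampling noise (mean chi-square per gene from 55.8 to 103 within groups).

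The labels give the replicate number as a batch, so the numbers were taken to pair samples. The main fits did not use this pairing: they hold no term for the number, and p-values are from them unless said otherwise. They treat the libraries of the same number in a culture as independent. If the number marks a shared culture or preparation, these p-values do not measure the spread between cultures or preparations. The number entered as a block only in an alternative fit. Over 10066 genes with a mean of at least 5 CPM, deviations of same-numbered libraries correlated between −0.205 and 0.479 (median 0.219) in 15 pairs of groups, 11 of them above 0.1. Members, lists, markers and tests were chosen with earlier results of these data known. Genes were named as the 12 largest differences of each sign among called protein-coding genes with at least 5 CPM in the higher culture and no overlap, up to 4 called members of each list by smallest p, the 6 markers, GAPDH, ACTB, MALAT1 and NEAT1, and 5 genes by smallest p for each time, the interaction and the difference from before NEE. Other members of the lists are named to show a list's makeup and were picked after their values were seen, as were the chaperone and ribosome biogenesis lists. Some items are not reported here.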

Additional observations from a re-analysis of the deposited data

Results flagged for a closer look

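In 60 groups of 6 libraries, made of 30 genes in each culture, the highest or lowest library was set against the others by Dixon's test, which by chance marks about 1 group in 20. In all, 4 monolayer values stood apart. CA9 was 10.2 CPM in replicate 2 at 24 h, against 0.829 to 3.09 CPM in the other 5 monolayer libraries. CAMKV was 16.5 CPM in replicate 2 right away, against 2.43 to 6.41 CPM. SLITRK6 was 1.77 CPM in replicate 2 at 2 h, against 0 to 0.49 CPM. ZNF488 was 101 CPM in replicate 1 right away, against 32.4 to 57.9 CPM.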

How the results depend on the processing

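Over the 3 times, counts of higher and lower genes were 1758 and 1593 with RLE scaling, 1913 and 1935 with the replicate number as a block, 1106 and 1203 from all 16 libraries and 2260 and 1949 by DESeq2; without 1 library they lay between 1280 and 1743 higher and between 1384 and 1757 lower. Requiring a fold of at least 2 left 64 and 28. Without the right-away libraries they were 666 and 736, and without those of 2 h 748 and 824. Single-time counts moved most. With no filter on low counts they were 623 and 635 right away, 475 and 446 at 2 h and 367 and 237 at 24 h, with 13 genes in the interaction and 72 in the difference from before NEE. With the replicate block they were 431 and 509, 279 and 317, and 140 and 86; the block moved no other count over all genes by over 1.5 times, and in lists, besides those given above, only counts of at most 2 genes, by 1 gene each. DESeq2 gave 657 and 707, 446 and 489, and 362 and 267, with 7 and 20 in the same tests. A minimum of 5 CPM gave 45 and 29 at 24 h. The 4 libraries of a time alone gave 4 and 0 right away, 0 and 0 at 2 h and 0 and 0 at 24 h, where fewer libraries enter. Without 1 library the counts lay between 2 and 278 higher and 2 and 366 lower right away, 2 and 126 higher and 0 and 197 lower at 2 h, 0 and 17 higher and 0 and 8 lower at 24 h, 0 and 0 in the interaction and 0 and 38 in the difference from before NEE. Where not set by fewer samples or genes, the cause was not tested. Of the comparisons of a named gene's value with an alternative, 3955 kept direction and call, 312 kept direction and lost the call, 17 gained it and none reversed. For the genes named from the interaction only the adjusted p was compared, so those could not reverse. Most other named genes were chosen because they were called in these libraries, and the alternatives reuse the same libraries. Their kept directions were therefore largely set in advance and are no independent test. Comparisons in which a gene was not tested or had no adjusted p are left out. Calls of NQO1, SFTPD, SPDEF, CCL5, CDKN1B, DUSP6 and KLF6 were lost without at least 1 library. Genes near 3 counts (0.136 to 0.187 CPM) cannot be resolved at this depth.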
